A study of Mus musculus with 4 samples.

Results

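A set of 10 genes for proteins that the liver makes and releases into blood plasma was followed in mouse skeletal muscle: Alb, Apoa1, Apoa2, Rbp4, Hp, Kng1, Mup3, Ttr, Trf and Fgb. They were picked by name with results of these arrays known, namely lower signal without the receptor Crhr2 and an unequal signal in the wild-type pools, so their own values are described here without a test. The array annotation gave 11 probe sets to 9 of the 10 genes, out of 8251 named genes and 12422 probe sets, and Trf, the plasma iron carrier transferrin, was not analysed here. Apoa2 and Mup3 had 2 probe sets each. The tissue was the gastrocnemius together with the soleus of untreated male mice aged 6.5 months on a mixed C57BL/6x129 background. The KO group was Crhr2-/- (KO replicates 1 and 2) and the WT group its Crhr2+/+ littermates (WT replicates 1 and 2). Each replicate was RNA pooled from 2 mice and hybridised to 1 Affymetrix U74Av2 array, so that 4 mice stand behind each genotype. How the mutant allele was built is not stated in the labels, and the groups rest on the sample titles, because genotype and tissue are exchanged in the other fields. Whether a pool shares litters with another pool is not stated either, and every spread below comes from pools and not from single mice.

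Hepatocytes, the main cells of the liver, secrete most plasma proteins other than antibodies. Albumin (Alb) is the most abundant of these and carries fatty acids, hormones and drugs. Transthyretin (Ttr) and retinol-binding protein (Rbp4) travel together as the carrier of vitamin A, apolipoproteins A-I and A-II (Apoa1, Apoa2) are the main proteins of high-density lipoprotein, haptoglobin (Hp) captures free haemoglobin, kininogen (Kng1) releases bradykinin and takes part in contact activation of clotting, fibrinogen beta chain (Fgb) is part of the clot protein, and major urinary proteins such as Mup3 leave the mouse in urine as pheromone carriers. Several are also made elsewhere: Rbp4 and Hp in fat cells, Apoa1 in the intestine and Ttr in the choroid plexus. Transcription of these genes in hepatocytes depends on a small set of factors, among them HNF1, HNF4, C/EBP and FOXA proteins.

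Alb, Apoa1 and the brighter Apoa2 probe set read highest in WT replicate 2, as did Kng1 and Ttr, and Fgb was dim on every array. The start-site regions of Alb, Apoa1, Apoa2 and Fgb are shown. They are also the only searched regions with a match to a motif below, so no link between matches and array order can be read from them. Each is the last 200 bases before the transcription start in RefSeq's promoter table (GRCm38.p6), written 5′ to 3′ along the gene, for the most downstream start where a gene has several. Capitals mark every match to GTTAAT, the core of HNF1 sites, or to TGTTTNC, the core of FOXA sites, on either strand. The letters were chosen with these sequences in view, and no 2 matches overlap.
Alb: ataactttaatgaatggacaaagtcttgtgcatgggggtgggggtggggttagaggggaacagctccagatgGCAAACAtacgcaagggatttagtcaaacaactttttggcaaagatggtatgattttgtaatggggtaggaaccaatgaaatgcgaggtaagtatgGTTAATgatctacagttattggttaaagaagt
Apoa1: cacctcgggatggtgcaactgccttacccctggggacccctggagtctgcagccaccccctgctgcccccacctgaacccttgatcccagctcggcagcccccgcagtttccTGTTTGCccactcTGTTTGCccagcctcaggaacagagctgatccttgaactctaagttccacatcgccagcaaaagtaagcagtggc
Apoa2: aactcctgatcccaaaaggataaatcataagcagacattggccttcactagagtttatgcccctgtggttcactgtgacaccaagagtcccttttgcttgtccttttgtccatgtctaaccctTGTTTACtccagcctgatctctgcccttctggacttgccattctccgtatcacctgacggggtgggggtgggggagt
Fgb: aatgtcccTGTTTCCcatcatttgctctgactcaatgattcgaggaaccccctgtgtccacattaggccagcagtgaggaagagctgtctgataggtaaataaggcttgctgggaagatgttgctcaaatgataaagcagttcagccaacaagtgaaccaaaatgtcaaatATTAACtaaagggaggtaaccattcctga
The windows lie at chr5:90460670-90460869 (plus strand) for Alb, chr9:46228430-46228629 (plus) for Apoa1, chr1:171224854-171225053 (plus) for Apoa2 and chr3:83049864-83050063 (minus) for Fgb. The FOXA core was found once in Alb, beginning 128 bases before the start, at 88 and 75 bases before it in Apoa1, at 77 in Apoa2 and at 192 in Fgb. The HNF1 core was found 32 bases before the start in Alb and 29 before it in Fgb. Windows were searched for 6 of the 10 genes, and those of Rbp4 and Mup3 held neither motif. Hp, Kng1, Ttr and Trf were not searched, so the counts that follow leave them out. The FOXA core thus occurred in 4 of 6 windows, against 14.1% of 32851 such windows, and the HNF1 core in 2 of 6, against 5.06%. These are matches of letters and not measured binding.

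Each array gave every probe set 1 linear intensity in arbitrary units, and the table's median was 69.2. Probe sets for yeast transcripts, 4 in number, read between 1.59 and 43.3 on these arrays, which serves below as a range seen without a matching mouse transcript. Ranked by mean over the 4 arrays, 4 of the 11 probe sets were in the brighter part of the table, whose midpoint was 68.7. Skeletal muscle itself was plain on all 4 arrays: of 23 measured muscle genes 22 lay above the median probe set, and the skeletal actin Acta1 read 19099 and 21770 in KO muscle and 20692 and 19525 in WT muscle. Array medians differed by at most 0.06 on the log2 scale. Crhr2 read 100.4 and 75.1 in KO muscle and 154 and 192 in WT muscle on its brighter probe set, and its dim probe set did not separate the genotypes; where either probe set lies relative to the deletion is not known here. Ratios of 3′ to 5′ control signal were 0.729 and 0.866 in KO muscle and 0.624 and 0.686 in WT muscle for actin. Differences below are log2(intensity + 14), KO minus WT, with the standard error of a limma fit over all probe sets, and they understate the difference of dim probe sets. That error is drawn toward the spread of probe sets of like intensity, so it is not the spread of a probe set's own pools alone.

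**Figure D1:**
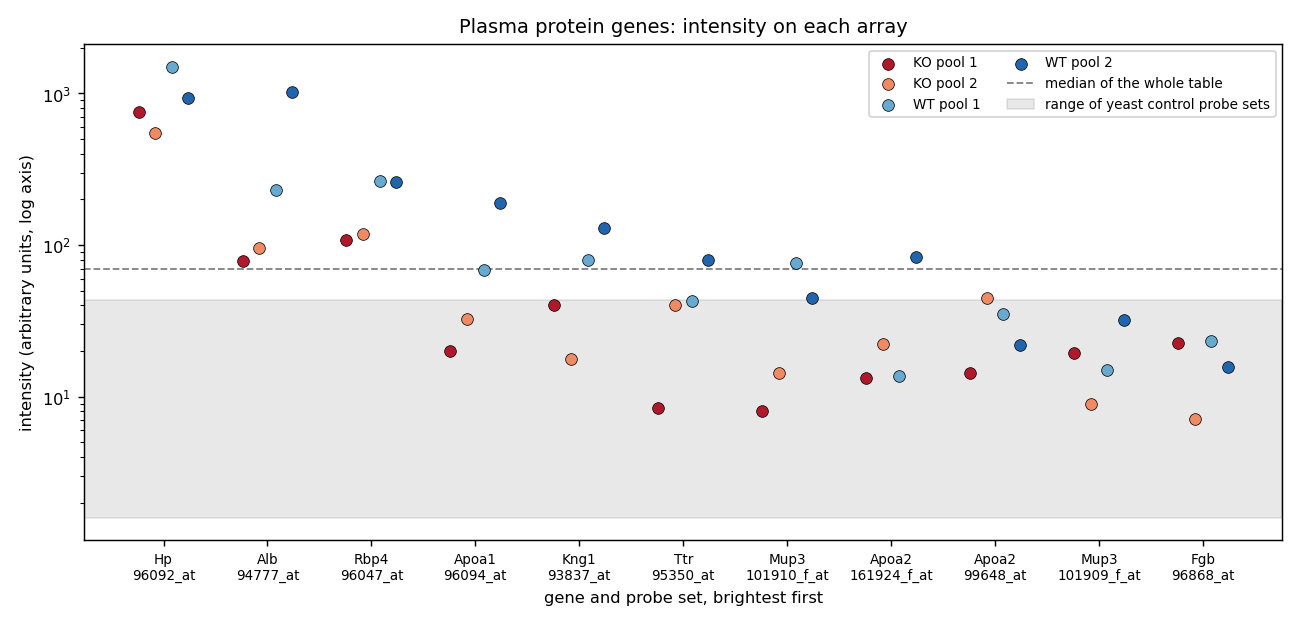
Intensity (arbitrary units, log axis) of the 11 probe sets of the plasma protein genes on each array, brightest first; points are single arrays, KO pools left of WT pools, the dashed line is the table median and the grey band the range of the yeast control probe sets. Alb stands at 1016 in WT replicate 2, far above its other points, whereas the Fgb points all lie inside the grey band.

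Albumin had the widest range of the carriers. Alb read 78.7 and 95.2 in the KO pools and 230.0 and 1016 in the WT pools. The KO mean of 86.9 ± 11.6 was 14.0% of the WT mean of 623 ± 556 (SD, n = 2 each), and the log2 difference was -2.32 ± 0.61. The WT pools were much further apart than the KO pools: WT replicate 2 read 4.42 times WT replicate 1, whereas KO replicate 2 read 1.21 times KO replicate 1. WT replicate 1 alone was nonetheless above both KO pools, and the difference was -1.28 without WT replicate 2.

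Rbp4, the carrier of retinol, had the tightest pools. It read 109 and 119 in the KO pools and 264 and 259 in the WT pools, a log2 difference of -1.11 ± 0.18. In contrast to Alb, the WT pools lay within 1.02 times of each other, and the difference stayed between -1.05 and -1.17 whichever array was left out. Its partner Ttr, which holds Rbp4 in the circulation, was dim and uneven. Ttr read 8.44 and 40.5 in the KO pools and 42.9 and 79.4 in the WT pools, so that only WT replicate 2 was clear of the yeast control range. Its log2 difference of -1.06 ± 0.53 was -0.42 when KO replicate 1 was left out, -1.70 without KO replicate 2 and -0.70 with WT replicate 2 omitted.

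Of the apolipoproteins of high-density lipoprotein, Apoa1 separated the genotypes and Apoa2 did not. Apoa1 read 20.2 and 32.5 in the KO pools and 68.1 and 189 in the WT pools, with a log2 difference of -1.69 ± 0.50. Both KO pools lay inside the yeast control range and both WT pools above it. WT replicate 2 was 2.77 times WT replicate 1, and without it the difference was -1.04. The brighter Apoa2 probe set read 13.3 and 22.3 in the KO pools and 13.8 and 83.2 in the WT pools, so that the genotypes overlapped and WT replicate 2 was the one array above the yeast control range. Its difference of -0.72 ± 0.62 became 0.18 when WT replicate 2 was left out and -1.63 when WT replicate 1 was. The dimmer Apoa2 probe set passed that range in KO replicate 2 instead: it read 14.4 and 44.6 in the KO pools and 35.03 and 21.9 in the WT pools (-0.04 ± 0.46), and its sign turned with the array left out (from -0.56 to 0.48).

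Haptoglobin was the brightest of the set, at the 93.7 percentile of all probe sets. Hp read 758 and 547 in the KO pools and 1505 and 934 in the WT pools, and its log2 difference was -0.87 ± 0.25. The groups did not overlap, but WT replicate 1 was the high array, 1.61 times WT replicate 2, the opposite order to Alb and Apoa1. Without WT replicate 1 the difference was -0.53. Hp is also a product of fat cells, and of the 11 measured adipocyte markers 10 were lower in WT replicate 2 than in WT replicate 1. Between genotypes these markers went both ways: 6 were lower and 5 higher in KO muscle. The median log2 difference was -0.10 (0.14 without WT replicate 1 and -0.34 without WT replicate 2). An unadjusted limma p under 0.05 was seen for 3 of them, 1 lower and 2 higher, against 5.43% of all probe sets. The lower one, the fatty acid-binding protein Fabp4, was picked out after its values were seen because its arrays had the order of Hp, at 138 and 91.4 in the KO pools and 236 and 170 in the WT pools. The summed intensity of the 11 adipocyte markers was 9465 and 7280 in the KO pools and 12323 and 8695 in the WT pools, and its largest part came from the desaturase Scd1 (-0.56 ± 0.25; its other 2 probe sets differed by -0.31 and 0.36). The adipokine Adipoq differed by 0.04 ± 0.25. The 2 higher ones at that p were Pck1 (0.71 ± 0.20), which makes glycerol for fat storage, and Cidea (1.48 ± 0.40), which coats lipid droplets in brown fat cells. The part of the adipocyte markers in the Hp difference was not tested.

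The clotting proteins differed from each other. Kng1, the kininogen, read 40.4 and 17.8 in the KO pools and 80.2 and 129 in the WT pools (-1.48 ± 0.42), with no overlap and with WT replicate 2 at 1.61 times WT replicate 1. Fgb read 22.6 and 7.18 in the KO pools and 23.2 and 15.6 in the WT pools (-0.25 ± 0.37). Every Fgb value was thus inside the yeast control range, and its sign turned to 0.14 without KO replicate 2. Mup3 was read by 2 probe sets of a type (suffix _f_at) that Affymetrix marks as matching several related transcripts, and the major urinary protein genes are near-identical copies, so the gene behind the signal is uncertain. The brighter one read 8.02 and 14.3 in the KO pools and 76.2 and 45.1 in the WT pools (-1.55 ± 0.39), WT replicate 1 being the higher. The dimmer one read 19.5 and 8.91 in the KO pools and 14.9 and 32.2 in the WT pools (-0.40 ± 0.38), all inside the yeast control range.

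As a set, 7 of the 11 probe sets, 1 each for Alb, Apoa1, Hp, Kng1, Mup3, Rbp4 and Ttr, had both KO arrays below both WT arrays, where 17.6% of all probe sets did (34.6% separated in either direction). A log2 difference of -1 or less was seen in 6 of the 11, against 0.95% of all probe sets. With the brightest probe set per gene the median log2 difference was -1.11 over the 9 genes, against 0.00 over all probe sets. The combination of a 2-fold or larger difference, separate groups and a place in the brighter part of the table was met by 3 of the 11. These were Alb, Apoa1 and Rbp4, and 0.209% of all probe sets met it on the lower side. Apoa1 was in the brighter part only through WT replicate 2. These genes were chosen on this contrast, and nothing is read from any of these counts or from the median. No probe set of any gene passed adjustment: 0 of 12422 (0%) had a limma adjusted p under 0.05, the smallest being 0.803, and 674 (5.43%) had an unadjusted p under 0.05. In pooled whole muscle, fewer cells of a type and less RNA per cell cannot be told apart.

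**Figure D2:**
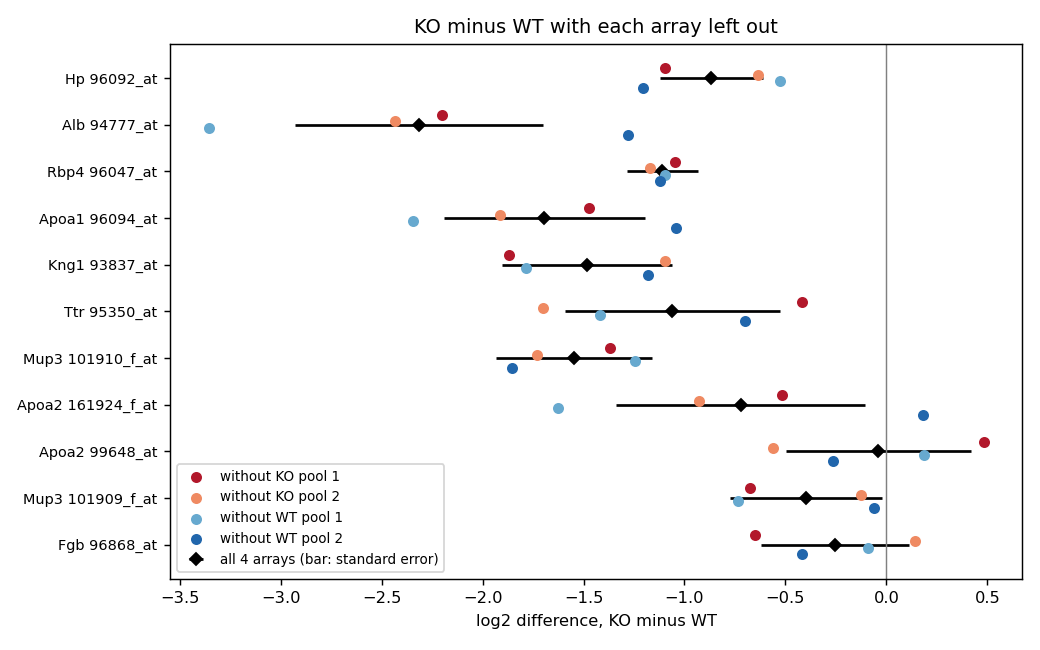
Log2 difference, KO minus WT, of each probe set with all 4 arrays (diamond, bar: standard error) and with each array left out in turn (coloured points). Rbp4 stays near -1.11, whereas Alb spans -3.36 without WT replicate 1 to -1.28 without WT replicate 2 and the brighter Apoa2 probe set crosses 0.

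The order of the wild-type pools was not the same for all genes. WT replicate 2 was above WT replicate 1 for 5 of the 9 genes on the brightest probe set, Alb, Apoa1, Apoa2, Kng1 and Ttr. It was below for Hp, Mup3, Fgb and Rbp4, where 51.8% of all probe sets had WT replicate 2 higher. For Rbp4 the log2 difference between the WT pools was only -0.03, and Fgb was too dim to order. The dimmer probe sets of Apoa2 (-0.45) and Mup3 (0.68) had the opposite order to the brighter ones. A log2 difference of at least 1 between the WT pools was seen for Alb (2.08), Apoa2 (1.81) and Apoa1 (1.30), against 3.15% of all probe sets. At the level of Alb or above there were 11 probe sets in the whole table (0.0886%), Alb included. The largest difference was that of Pla2g12a, which read 717 and 1799 in the KO pools and 205 and 1590 in the WT pools. Besides Alb, only Fga, the fibrinogen alpha chain, belonged to any gene list read here. Fga was named after its values were seen: it read 8.80 and 11.8 in the KO pools and 5.55 and 127 in the WT pools. WT replicate 2 was thus the one array on which Fga was clear of the yeast control range. The third fibrinogen chain, Fgg, read 1.28 and 7.81 in the KO pools and 5.13 and 22.3 in the WT pools, too dim, like Fgb, for its arrays to be put in order. The KO pools had no common order: KO replicate 2 was above KO replicate 1 for 6 of the 9 genes, with a median log2 difference of 0.24. They lay at least 1 log2 unit apart for 2 of the 11 probe sets, Ttr and the dimmer one of Apoa2, against 6.8% of all probe sets.

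**Figure D3:**
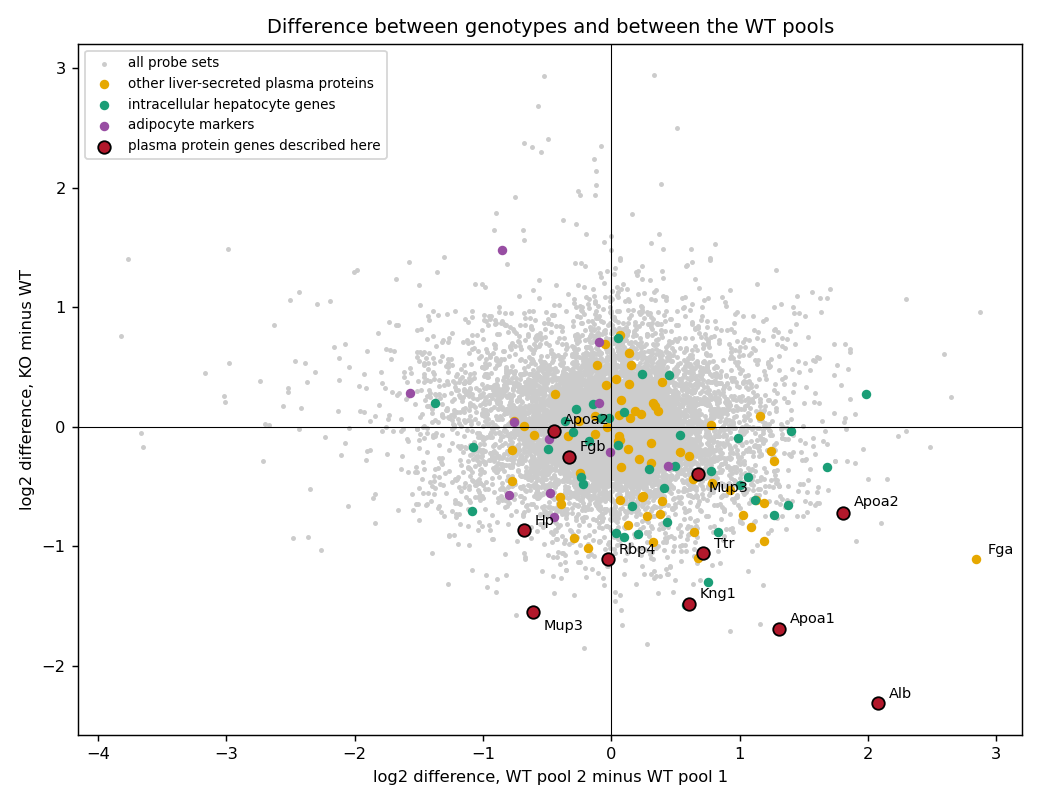
Log2 difference KO minus WT (vertical) against the log2 difference of WT replicate 2 minus WT replicate 1 (horizontal) for all probe sets (grey), the named plasma protein genes (red, labelled) and other lists; both axes use the WT arrays. Alb, Apoa1, Apoa2 and Fga lie at the right, while Rbp4, Hp and the brighter Mup3 probe set are low but at or left of 0.

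A longer list of secreted liver proteins was read in the same way. Of 84 listed genes 66 were measured; 42 were lower and 24 higher in KO muscle, with a median log2 difference of -0.19 (-0.08 without WT replicate 2). Both KO arrays were below both WT arrays for 20 of the 66 and above them for 8, against 17.6% and 17% of all probe sets. The count of 20 became 23, 36, 34 and 29 without KO replicate 1, KO replicate 2, WT replicate 1 and WT replicate 2, respectively. Separation from 3 arrays is more frequent, and 32.8%, 35.3%, 33.9% and 32.8% of all probe sets were then lower. With limma, 0 of the 66 had an adjusted p under 0.05. An unadjusted p under 0.05 was seen for 5 (4 lower and 1 higher in KO muscle), against 5.43% of all probe sets. The alpha-1-antitrypsin genes Serpina1b and Serpina1e, near-identical copies whose signals may be shared, were the only ones of the brightest 8 with such a p. Serpina1b read 110.4 and 141 in the KO pools and 228 and 290 in the WT pools (-0.97 ± 0.21), and Serpina1e 92.3 and 104 in the KO pools and 176 and 289 in the WT pools (-1.10 ± 0.27). The other 6 of the brightest did not share a direction. Apoe, which many tissues make, read 2065 and 2151 in the KO pools and 2658 and 1652 in the WT pools (0.01 ± 0.22, and -0.41 on a dim probe set). The inhibitor Serpina3n and angiotensinogen (Agt) differed by 0.04 ± 0.14 and -0.08 ± 0.20. The acute-phase protein Saa2 and protein C (Proc) differed by -0.62 ± 0.36 and -0.75 ± 0.32 but by 0.02 and 0.67 on a second probe set, and coagulation factor F7 by 0.52 ± 0.21 and by -0.04 on its second. The top array was WT replicate 2 in 30 of the 66 (45.5%), against 25.5% of all probe sets.

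Genes that hepatocytes keep inside the cell were mostly dim in muscle: 6 of 40 measured lay above the median probe set. Of the 40, 29 were lower and 11 higher in KO muscle (median log2 difference -0.33, moving to -0.12 if WT replicate 2 was left out and -0.54 if WT replicate 1 was), 13 with both KO arrays below both WT arrays and 3 above, where 17.6% and 17% of all probe sets were. The count of 13 became 20, 22, 24 and 17 without KO replicate 1, KO replicate 2, WT replicate 1 and WT replicate 2, respectively. Of all probe sets, 32.8%, 35.3%, 33.9% and 32.8% were then lower without overlap. With limma, 0 had an adjusted p under 0.05 and 5 (4 lower and 1 higher) an unadjusted p under 0.05, against 5.43% of all probe sets. The top array was WT replicate 2 in 21 of the 40 (52.5%), against 25.5% of all probe sets, and it was at least 2-fold above WT replicate 1 for 8 of them, against 3.15%. The urea cycle enzyme Ass1, chosen after its values were seen, read 27.7 and 12.9 in the KO pools and 18.7 and 71.2 in the WT pools. Those counts rest on dim probe sets: all 6 genes of the list above the median level had WT replicate 2 below WT replicate 1, and over them the median log2 difference of WT replicate 2 minus WT replicate 1 was -0.29, against 0.22 over the 40. The median KO minus WT over the 6 was 0.02. Cyp2e1, the brightest of the list and also made in fat, read 1008 and 1095 in the KO pools and 1484 and 563 in the WT pools (0.20 ± 0.40). The next brightest did not separate clearly from 0: Gstm3 differed by 0.07 ± 0.17 (-0.23 on its second probe set), Adh1 by -0.04 ± 0.21, Hsd11b1 by 0.15 ± 0.23 and Cyp2f2 by -0.42 ± 0.19.

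The transcription factors that drive plasma protein genes in hepatocytes were read on the same arrays. Of 17 measured, 11 were lower and 6 higher in KO muscle, the median was -0.01 (-0.07 without KO replicate 2 and -0.13 without WT replicate 2), and the top array was WT replicate 2 in 2 of them. Both KO arrays were below both WT arrays for 3 and above them for 3, against 17.6% and 17% of all probe sets. Without KO replicate 1, KO replicate 2, WT replicate 1 or WT replicate 2 the lower count was 6, 5, 3 or 8, respectively. The shares of all probe sets were then 32.8%, 35.3%, 33.9% and 32.8%. The 3 lower ones with all 4 arrays, named after their values were seen, were Cebpd (-0.44 ± 0.18), the bile acid receptor Nr1h4 (-0.69 ± 0.34) and Foxa3 (-0.45 ± 0.36). Hnf4a, the factor most closely tied to hepatocytes, read 18.04 and 11.6 in the KO pools and 17.4 and 14.9 in the WT pools, all inside the yeast control range, as did Foxa1 and Foxa3. The brightest were factors that other tissues also express: Tef differed by -0.01 ± 0.11 and Cebpa by -0.01 ± 0.18.

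Receptors and partners of the plasma proteins in the muscle itself went both ways. Of 25 measured, 15 were higher and 10 lower in KO muscle (median 0.05, and -0.02 without WT replicate 2), 4 with both KO arrays below both WT arrays and 2 above, against 17.6% and 17% of all probe sets. With 1 array left out 7 to 10 were lower without overlap, against 32.8% to 35.3% of all probe sets. With limma, 0 had an adjusted p under 0.05 and 1, lower in KO muscle, an unadjusted p under 0.05, against 5.43% of all probe sets. Fth1, the heavy chain of the iron store ferritin, read 8600 and 8329 in the KO pools and 8457 and 8715 in the WT pools. The transferrin receptor Tfrc differed by 0.08 ± 0.14, the phospholipid transfer protein Pltp by -0.06 ± 0.13, the scavenging receptor Lrp1 by -0.24 ± 0.13 and the haem-degrading enzyme Hmox1 by 0.46 ± 0.30.

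Likeness to albumin was measured as the Euclidean distance, over the 4 arrays, between log2 values centred on each probe set's own mean, among probe sets above the median level. The nearest was Apoa1 (distance 0.84), and the next 7 in order were Pttg1, P2ry2, Serpina1e, Tmem115, Junb, Pitpnb and Pik3cd. Apoa1 and Serpina1e are plasma protein genes, and Apoa1 passed the median level only through WT replicate 2. Pttg1, which encodes securin, an inhibitor of separase in mitosis, read 143 and 462 in the KO pools and 559 and 1267 in the WT pools. P2ry2, a receptor for extracellular nucleotides, read 26.2 and 43.1 in the KO pools and 77.7 and 134 in the WT pools. A second probe set of Junb (0.25) and a brighter one of Pitpnb (0.00) did not show the lower level in KO muscle. Among the other plasma protein genes above the median level, Rbp4 was the 21st and Hp the 603rd nearest probe set.

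**Figure D4:**
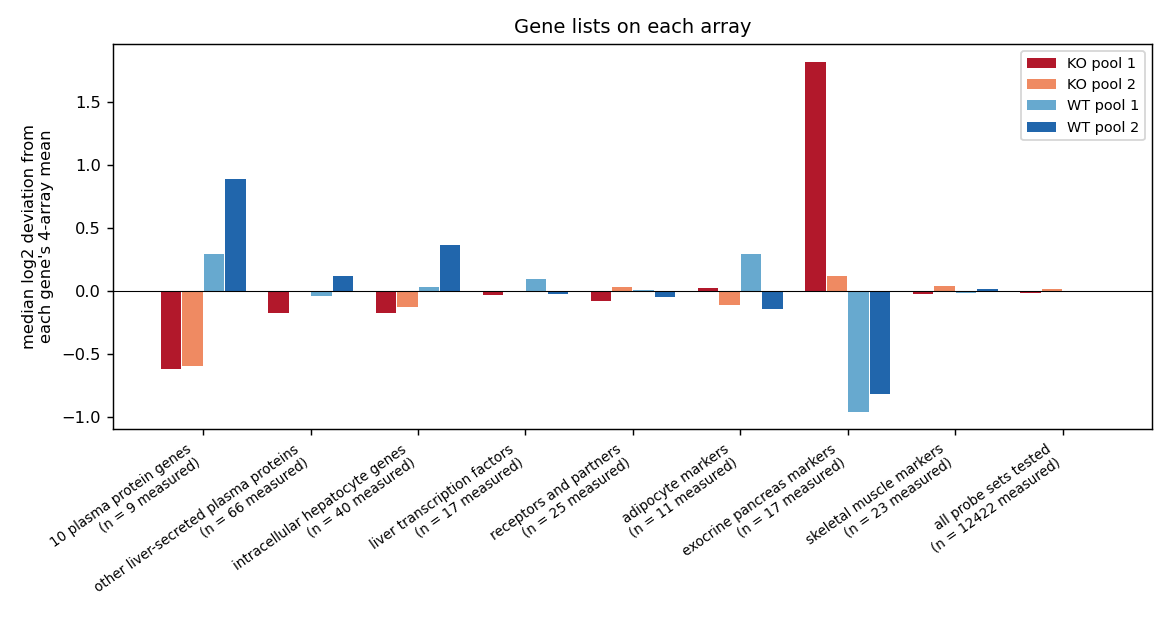
Median log2 deviation of each gene list from its genes' 4-array means, for each array (bars, KO pools left of WT pools; n is the number of genes measured). The plasma protein genes stand at 0.89 and the hepatocyte genes at 0.37 in WT replicate 2, while exocrine pancreas markers stand at 1.82 in KO replicate 1.

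Markers of other tissues were read on the same arrays. Exocrine pancreas markers were higher in KO muscle in 17 of 17 cases (median log2 difference 1.94, with 1.09 when KO replicate 1 was left out and 2.71 when KO replicate 2 was), with summed intensities of 18077 and 5504 in the KO pools and 2587 and 2462 in the WT pools. The chymotrypsin Ctrb1 read 3467 and 1370 in the KO pools and 589 and 661 in the WT pools, and the trypsin-like 2210010C04Rik differed by 2.34 ± 0.54. The pancreas markers were thus highest in KO replicate 1 and the plasma protein genes, by median, in WT replicate 2. Of 7 blood markers 6 were higher in KO muscle (median 0.11, turning to -0.09 when KO replicate 1 was left out and -0.03 when WT replicate 2 was), with Hba-a1 at 0.46 ± 0.14 and Hbb-b2 at 0.35 ± 0.33. Intestine markers had summed intensities of 309 and 335 in the KO pools and 354 and 352 in the WT pools, led by Reg3b (-0.12 ± 0.31) and Krt20 (-0.37 ± 0.54). Kidney markers summed to 235 and 231 in the KO pools and 227 and 233 in the WT pools, led by Slc22a6 (-0.83 ± 0.47) and Kap (-0.04 ± 0.37). By mean over the arrays no gene of either list reached the median probe set. On single arrays some passed the array's median, among them Krt20 and Reg3b in WT replicate 1 and Fabp6 and Slc22a6 in WT replicate 2. Neutrophil and macrophage markers had a median of -0.05 over 19 genes, with C1qc at -0.13 ± 0.25 and Csf1r at -0.25 ± 0.17 (0.07 on a second probe set). Schwann cell and nerve markers had a median of 0.10 over 11 genes, with Pmp22 at 0.02 ± 0.16 and Mbp at -0.10 ± 0.26 (0.39 on a second probe set). Muscle markers had a median of 0.02, with the parvalbumin gene Pvalb at 0.10 ± 0.16. The part of these other tissues in the plasma protein signal was not tested.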

How the data were processed

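RNA of 4 pools was measured on Affymetrix U74Av2 arrays, per the labels' protocols. The authors' deposited table holds 1 linear intensity per probe set. How probes were summarised, corrected for background or called present is not stated there. The deposited values had been scaled by array, since a mean trimmed by 2% at each end was 200.2 on every array. Of 12488 rows, 66 Affymetrix controls were left out.

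Values were taken as log2(intensity + 14), 14 being 20% of the table's median rounded, with no filter on level. KO and WT were compared with limma 3.58.1 in R 4.3.3 (lmFit, eBayes with an intensity trend, two-sided, Benjamini-Hochberg over 12422 probe sets, threshold 0.05), a method tested on simulated data. The number of arrays limits the precision. Standard errors and p-values rest on the spread between pools, drawn toward that of probe sets of like intensity.

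The platform annotation gave 1 symbol to 10833 probe sets, several to 396 and none to 1193, and only the first were named, updated through GRCm38.p6 gene identifiers (10817 found). A list used the brightest probe set of each gene. The members and lists were chosen with earlier results of these data known. Beside the members, genes were named by level (the brightest 8, 5 or 2 of a list) or by nearness to Alb; Crhr2 was named as a check, and other names were chosen after their values were seen. Replicate numbers are shared between genotypes, but same-numbered pools did not deviate together (r = 0.00 across probe sets, which are not independent), so no block was used. Figures were drawn with matplotlib.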

Additional observations from a re-analysis of the deposited data

How the results depend on the processing

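No probe set passed adjustment under any of the alternatives run (scaling, pseudocount, filter, trend, block or an array left out). The count of probe sets with a 2-fold difference, no overlap and a mean above the median was 65; it was 29 with 4 times the pseudocount and 108 to 142 with 1 array left out. The median log2 difference of the plasma protein genes was -1.11. It was -0.83 with 4 times the pseudocount, -1.44 with a pseudocount 4 times smaller and -1.10 to -1.42 with 1 array left out. The number of these genes with no overlap was 7; it was 4 when dim probe sets were dropped, because 5 of the 9 genes then have none left, and 8 with any 1 array left out, where 32.8% to 35.3% of all probe sets were lower without overlap. The brighter Apoa2 probe set turned to 0.18 without WT replicate 2 (range -1.63 to 0.18 with 1 array left out). With the replicate number as a block the count of probe sets passing adjustment stayed at 0. The log2 differences, and so the plasma protein median of -1.11, cannot change there, because each replicate number occurs once in each genotype. For single probe sets of the 10 genes, 98 alternative values stayed within the spread between pools and 6 moved beyond it. Block values are counted among those that stayed, here and for the list medians, although they could not move. For single probe sets, values with 1 array left out could not move beyond the spread either. The spread is built from the same differences between pools, so the tally of single probe sets is no measure of stability. For the other lists, 214 medians and 69 counts stayed and 42 medians and 37 counts moved. Among those, the hepatocyte median was 0.02 over probe sets above the median level and -0.15 with 4 times the pseudocount. The cause of these moves was not tested. Signals inside the yeast control range have no reliable order.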
